A study of Mus musculus with 6 samples.

Results

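The mitochondrial carrier family, named Slc25a in the mouse, was followed in cardiomyocytes grown with neonatal or adult cardiac fibroblasts. Members were all genes whose symbol is Slc25a and a number, with pseudogenes left out and a depth-scaled count (CPM, counts scaled to library size) over 1 in at least 2 bulk libraries. Of 47 such genes in the bulk table, 39 passed, among 14041 of 27179 genes that passed the same filter. The 8 that did not pass were Slc25a2, Slc25a18, Slc25a21, Slc25a31, Slc25a41, Slc25a48, Slc25a53 and Slc25a54, and 0 of the 39 passed through the libraries of 1 group only. All 39 also have a column in both single-cell tables.

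Mitochondrial carriers are small proteins of the inner membrane that exchange nucleotides, phosphate, amino acids, carboxylates, acylcarnitines and cofactors between matrix and cytosol. In heart muscle the ATP made in the matrix leaves through the adenine nucleotide translocases, electrons from cytosolic NADH enter by way of the malate-aspartate shuttle, and long-chain fatty acids enter as acylcarnitines. A few members sit in other membranes, such as Slc25a46 of the mitochondrial outer membrane and Slc25a17 of the peroxisome.

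All samples came from C57BL/6 mice. Immature cardiomyocytes (imCMs) from neonatal hearts were co-cultured with neonatal fibroblasts (imCM-NF, 2 bulk libraries) or adult fibroblasts (imCM-AF, 2 bulk libraries), and per the study's methods were sorted by dye from fibroblasts that were plated in larger number for the adult than for the neonatal co-culture. Single cells were sequenced from nanowell chips as well, 1 library labelled cardiomyocytes and 1 labelled fibroblasts, in which each well carries a name (Type): AFNCM, NFNCM and NCM0 on the first chip, and AF, NF, AF0 and NF0 on the second. The labels do not say what these names stand for, so they are used here as names. Nothing in the labels says that the 2 libraries of a group came from separate cultures, so the p-values measure the spread between these libraries only.

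Bulk totals ran from 9278909 to 12088577 counts. The cardiomyocyte marker genes were abundant in every bulk library, with a summed 24510 to 33502 CPM in imCM-NF and 32439 to 35248 CPM in imCM-AF, and 1 of 10 (Ttn) was called higher. Fibroblast markers summed to 18434 and 20487 CPM in imCM-NF against 12662 and 10048 CPM in imCM-AF, with 5 of 10 called lower and 0 higher. Endothelial markers summed to 898 and 934 CPM against 599 and 574 CPM, with 4 of 7 called lower. Macrophage markers summed to between 54.9 and 80.9 CPM with 2 of 7 called lower, and smooth muscle markers to between 1559 and 2222 CPM with 1 of 4 called lower. The part of these cells in the results for the carriers was not tested, and in bulk RNA fewer cells of a type and less RNA per cell cannot be told apart.

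The most abundant carriers did not pass the adjusted p between the groups. Per kilobase of exon, Slc25a4, the adenine nucleotide translocase typical of heart and muscle, stood highest with a mean of 801 CPM per kilobase over the 4 libraries. It was followed by its ubiquitous relative Slc25a5 (238), the phosphate carrier Slc25a3 (162), the oxoglutarate/malate carrier Slc25a11 (87.7) and Slc25a39, a carrier linked to glutathione import (74.3).

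Slc25a4 was measured at 1880 and 1600 CPM with neonatal fibroblasts and at 2031 and 2026 CPM with adult fibroblasts (log2 fold change 0.22 ± 0.16, SE, adjusted p = 0.315). Slc25a5 was at 391 and 350 CPM against 421 and 403 CPM (0.15 ± 0.11, adjusted p = 0.33). Slc25a3 was at 831 and 785 CPM against 1004 and 969 CPM (0.29 ± 0.13, adjusted p = 0.108). In all 3 of these genes both imCM-AF libraries lay above both imCM-NF libraries, and the differences did not pass the test with 2 libraries a group. Slc25a11 was at 186 and 161 CPM against 199.96 and 197 CPM (0.20 ± 0.10, adjusted p = 0.17). Slc25a39 was at 201 and 197 CPM against 217 and 204 CPM (0.08 ± 0.10, adjusted p = 0.568). None of these 5 most abundant carriers was called by edgeR, and of them Slc25a3 had an unadjusted p under 0.05.

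A gene was called when its log2 fold change was beyond 0.58 in either direction with an adjusted p below 0.05. Across the family, 4 of 39 members were called, all 4 higher in imCM-AF. This share of 10.3% lay near that of all tested genes, of which 11.1% were called (6.15% higher and 4.99% lower). The edgeR quasi-likelihood test called 0 members lower, as did DESeq2 and limma-voom, while 3 members lower in imCM-AF had an unadjusted p under 0.05. At an adjusted p under 0.05 without the fold threshold, 10 members were higher and 3 lower, that is 25.6% and 7.69% of the family beside 12.5% and 14.5% of all tested genes. The median log2 fold change over the 39 members was 0.17, and over all tested genes 0.0011, with 27 members above 0 and 12 below. The libraries of the groups did not overlap for 32 members (82.1%), against 66.0% of all tested genes. Leaving out 1 library at a time gave between 3 and 7 members called, with 7 without imCM-NF replicate 1 and also 7 without imCM-AF replicate 1.

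**Figure D1:**
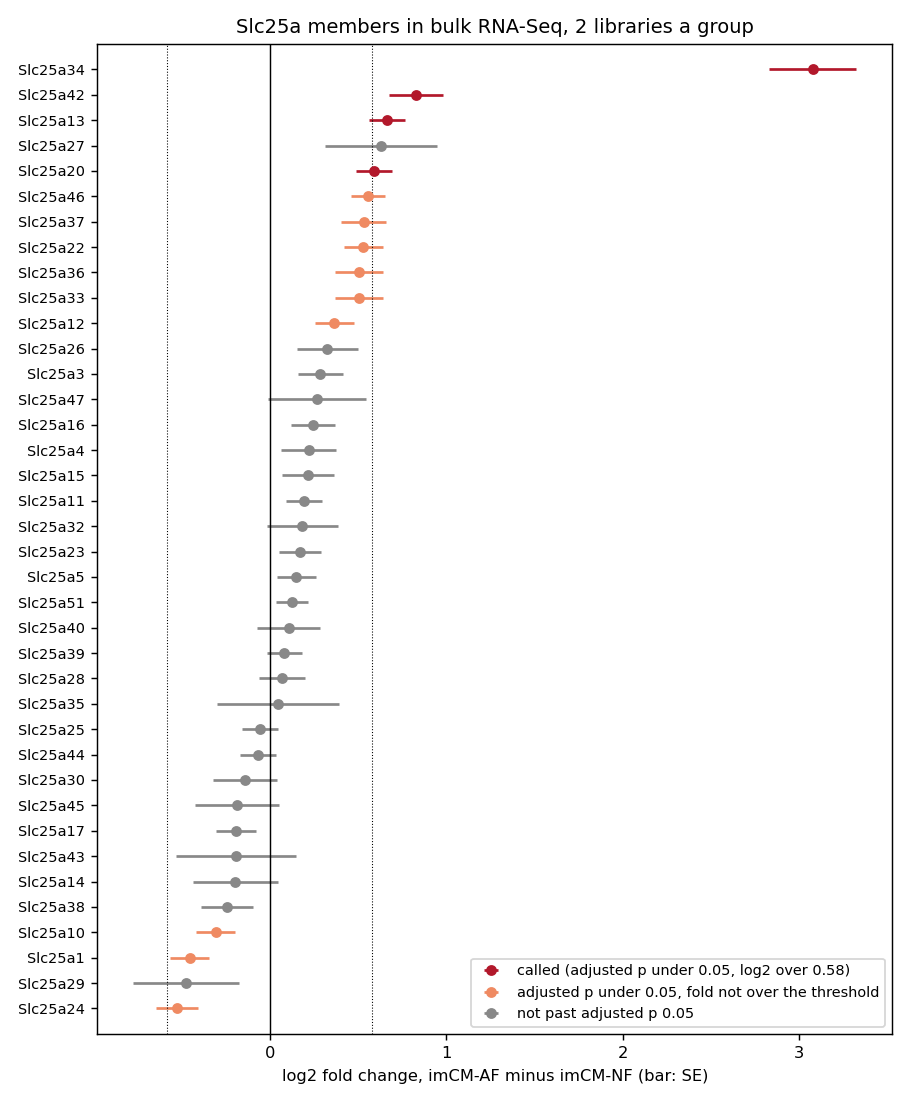
Log2 fold change of 38 of the 39 members between imCM-AF and imCM-NF (x axis), with its SE as a bar, ordered by size; dotted lines mark the fold threshold of 0.58. Slc25a34 stands at 3.08 while all other members lie between -0.52 and 0.83, and Slc25a27 at 0.63 lies past the fold threshold but not past the test.

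Slc25a34, a carrier with no settled substrate, showed the largest rise of the family. With neonatal fibroblasts 18 and 15 reads were counted, and with adult fibroblasts 154 and 151. Scaled, it was at 2.01 and 1.24 CPM against 14.1 and 12.7 CPM (log2 fold change 3.08 ± 0.25, SE, adjusted p = 1.88e-07). Both imCM-AF libraries lay far above both imCM-NF libraries, and the gene was called under every scaling, filter, test and left-out library tried. It lies on chr4:141618819-141623891, minus strand (GRCm38.p6), and no annotated gene overlaps it. Even so it remained a low transcript of the family, at a mean of 2.81 CPM per kilobase of exon.

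The other 3 called members have known substrates. Slc25a42, which brings coenzyme A into the matrix (chr8:70184340-70212281, minus strand), was at 16.7 and 11.6 CPM in imCM-NF against 23.9 and 25.8 CPM (0.83 ± 0.15, adjusted p = 8.12e-04). Slc25a13, the aspartate/glutamate carrier also called citrin (chr6:6041218-6217304, minus strand), was at 35.0 and 31.3 CPM against 52.0 and 52.8 CPM (0.67 ± 0.10, adjusted p = 1.64e-04). Slc25a20, the carnitine/acylcarnitine carrier of fatty acid import (chr9:108662136-108684642, plus strand), was at 59.5 and 49.3 CPM against 81.0 and 82.2 CPM (0.59 ± 0.10, adjusted p = 5.3e-04). In each of the 3 genes the groups did not overlap, and the imCM-NF libraries were further apart than the imCM-AF libraries. The rise of Slc25a20 was just over the fold threshold, and without imCM-NF replicate 2 it was 0.46 with an adjusted p of 0.0184 and was no longer called.

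The bases before the transcription start of the 4 called members are shown because these genes moved in the same direction. They come from RefSeq on build GRCm38.p6 and are written 5′ to 3′ on the strand of the gene, from at most 250 bases before the start listed there, without bases that fall inside the annotated gene. The letters AAGGTCA, a part of the extended half-site that estrogen-related receptors are known to bind, were searched on both strands, and a match is in capitals.

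Slc25a34, chr4:141623892-141624084, minus strand: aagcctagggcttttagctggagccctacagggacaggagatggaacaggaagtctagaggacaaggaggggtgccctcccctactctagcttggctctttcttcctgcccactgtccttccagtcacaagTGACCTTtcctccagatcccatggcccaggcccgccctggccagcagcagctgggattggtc
Slc25a42, chr8:70212282-70212531, minus strand: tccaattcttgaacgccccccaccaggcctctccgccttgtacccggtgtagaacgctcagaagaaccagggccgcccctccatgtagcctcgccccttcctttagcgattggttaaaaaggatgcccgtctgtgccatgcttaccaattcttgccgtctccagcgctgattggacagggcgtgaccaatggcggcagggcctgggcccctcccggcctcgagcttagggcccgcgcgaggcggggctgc
Slc25a13, chr6:6217305-6217423, minus strand: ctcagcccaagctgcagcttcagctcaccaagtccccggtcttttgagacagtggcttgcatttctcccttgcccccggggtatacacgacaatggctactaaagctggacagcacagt
Slc25a20, chr9:108661886-108662135, plus strand: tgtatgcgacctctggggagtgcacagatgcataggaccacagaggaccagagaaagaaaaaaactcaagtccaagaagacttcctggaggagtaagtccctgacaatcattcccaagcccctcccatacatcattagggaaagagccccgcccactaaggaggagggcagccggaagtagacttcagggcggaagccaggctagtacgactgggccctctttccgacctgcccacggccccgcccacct

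The match in Slc25a34, on the opposite strand, begins 119 bases before the listed transcription start. Its printed stretch of 193 bases ends short of that start, at the outer bound of the annotated gene. The other 3 stretches hold none. Over the whole 250 bases, 1 of 30 members with an entry held these letters, beside 4.08% of 32851 promoters of the table, and the search letters were chosen after the stretches had been read. The match describes the letters only.

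A further 6 members passed the adjusted p but not the fold threshold on the higher side. Slc25a46, a protein of the mitochondrial outer membrane, was at 38.6 and 38.8 CPM against 56.1 and 57.97 CPM (0.56 ± 0.10, adjusted p = 4.67e-04). Slc25a22, a glutamate carrier, rose by 0.53 ± 0.11 on the log2 scale from a mean of 32.3 to 46.5 CPM. Slc25a37, the iron carrier mitoferrin-1, also rose by 0.53 (± 0.13) from a mean of 22.6 to 32.5 CPM. The pyrimidine nucleotide carriers Slc25a33 and Slc25a36 each rose by 0.51, and Slc25a12, the aspartate/glutamate carrier also called aralar, by 0.37 ± 0.11. The reading of Slc25a46 was the nearest to the fold threshold, and it was called when scaled to total counts (0.60), with upper-quartile scaling (0.59) and without imCM-AF replicate 1 (0.60).

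On the lower side stood 3 members. Slc25a24, an ATP-Mg/phosphate carrier, was at 31.0 and 37.0 CPM against 24.1 and 23.4 CPM in imCM-AF (-0.52 ± 0.12, adjusted p = 0.00365). Slc25a1, the citrate carrier, was at 48.3 and 56.3 CPM against 41.7 and 35.0 CPM (-0.45 ± 0.11, adjusted p = 0.00656). The dicarboxylate carrier Slc25a10 was at 36.8 and 43.9 CPM against 32.4 and 33.2 CPM (-0.30 ± 0.11, adjusted p = 0.0491). Annotated genes overlap Slc25a10, Slc25a12, Slc25a33, Slc25a36, Slc25a37 and Slc25a46, and since the strand used in counting is not given, reads of the overlapping genes could be included. In Slc25a24, Slc25a1 and Slc25a10 both imCM-AF libraries lay below both imCM-NF libraries. The summed fibroblast markers were also lower in imCM-AF, and their part in the values of these 3 members was not tested.

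**Figure D2:**
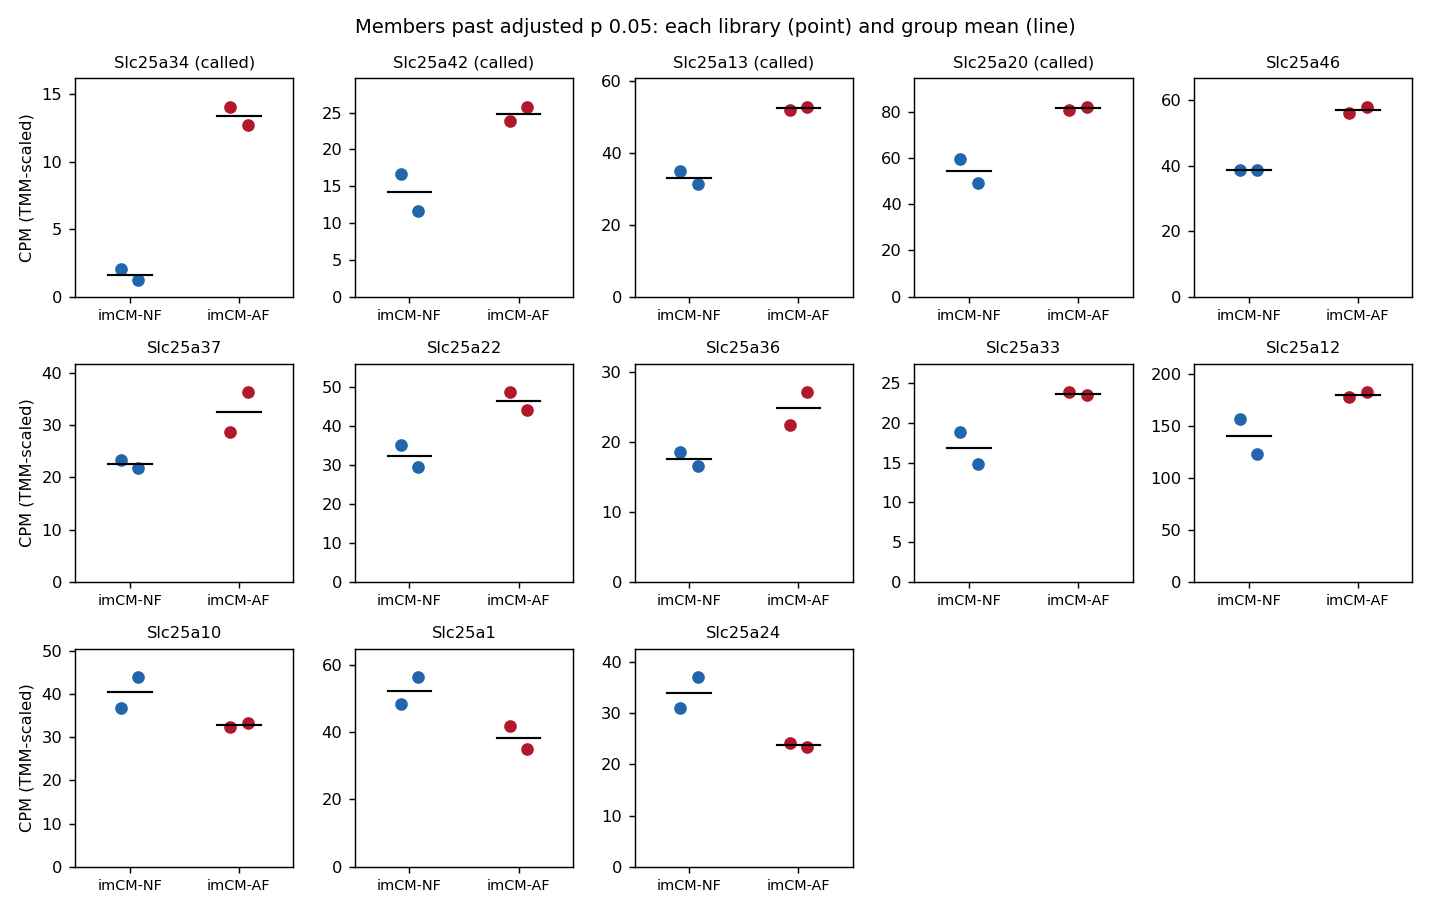
CPM (TMM-scaled, y axis from 0) of the 13 members past an adjusted p of 0.05, with each library as a point and the group mean as a line. In every panel the 2 imCM-AF libraries lie on 1 side of the 2 imCM-NF libraries, and Slc25a34 shows the widest gap.

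By role, the amino acid carriers had 3 of 7 tested members past the adjusted p, all higher (Slc25a12, Slc25a13 and Slc25a22), with 4 above 0, 3 below and a median log2 fold change of 0.22. Over all tested genes 12.5% were higher and 14.5% lower at this threshold, and groups of this size are described only. The nucleotide and coenzyme carriers outside the translocases had 3 of 8, all higher (Slc25a33, Slc25a36 and Slc25a42), also with a median of 0.22. Of 3 tested di- and tricarboxylate carriers 2 were lower (Slc25a1 and Slc25a10), and Slc25a11 did not pass. Of 3 ATP-Mg/phosphate carriers 1 was lower (Slc25a24). In edgeR 0 of 3 carriers of S-adenosylmethionine or glutathione (Slc25a26, Slc25a39, Slc25a40) and 0 of 3 relatives of the uncoupling proteins (Slc25a14, Slc25a27, Slc25a30) passed, with 0 at an unadjusted p under 0.05. Slc25a27 had the widest error among members past the fold, at 0.63 ± 0.32 on 19 to 41 reads a library.

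Genes around the carriers were followed through 4 lists. Of 5 carrier-fold proteins under other symbols, 2 were called higher, beside 6.15% of all tested genes, and a list of this size is described only. Ucp3, an uncoupling protein of muscle, was at 0.557 and 0.413 CPM against 8.21 and 7.81 CPM in imCM-AF (4.04 ± 0.33, adjusted p = 2.58e-07). Ucp2, another uncoupling protein, was at 16.1 and 17.8 CPM against 34.4 and 33.4 CPM (0.996 ± 0.119, adjusted p = 1.32e-05). Ucp3 passed the filter on low counts through the imCM-AF libraries only, so its difference was in part fixed by the filter. Mtch1 had a log2 fold change of -0.54 (adjusted p = 8.12e-04), short of the fold threshold, and was not called.

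Of 10 enzymes that work with the shuttles, 5 were called higher and 0 lower, with a list median of 0.56 beside 0.0011 over all tested genes and 11.1% of genes called. The carnitine palmitoyltransferases, which make and break the acylcarnitines that Slc25a20 carries, were among them: Cpt1b rose by 1.03 ± 0.12, Cpt2 by 0.81 ± 0.10 and Cpt1a by 0.67 ± 0.10. Crat, the carnitine acetyltransferase, rose by 0.63 ± 0.11, and Ckmt2, the mitochondrial creatine kinase of muscle, by 0.70 ± 0.12. Without imCM-NF replicate 2, Crat (0.49) and Ckmt2 (0.54) were no longer called. Among the enzymes of the malate-aspartate shuttle, Got1 was at 0.50 with an adjusted p of 0.00391, below the fold threshold, and Mdh1, Mdh2 and Got2 did not pass. Acly, which splits the citrate exported by Slc25a1, had a log2 fold change of -0.39 (adjusted p = 0.00614), below the fold threshold.

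In the import machinery for carriers (TIM22 list), 0 of 9 genes were called by edgeR, DESeq2 or limma-voom, with 1 higher and 2 lower at an unadjusted p under 0.05 in edgeR. Of 19 other genes of mitochondrial membrane transport, 1 was called, on the lower side (beside 4.99% of all tested genes), with a list median of -0.0072. At an adjusted p under 0.05 without the fold threshold, 1 was higher and 5 lower. These shares of 5.26% and 26.3% stand beside 12.5% and 14.5% of all tested genes. The voltage-dependent anion channels Vdac1, Vdac2 and Vdac3 did not pass.

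In the single-cell libraries, UMIs (molecule tags) were summed over the kept wells of a Type, 498 wells for AFNCM, 514 for NFNCM, 253 for NCM0, 229 for AF, 257 for NF, 182 for AF0 and 320 for NF0. Each chip is 1 sample in the labels, and wells of a Type carry 2 or 3 source numbers that nothing in the labels ties to separate cultures, so no test between Types was made. The intervals below cover counting error only, and source values are given for several members as a further view of the spread. Of the kept wells, 79.1% of AFNCM, 87.7% of NFNCM and 95.3% of NCM0 had more cardiomyocyte than fibroblast marker UMIs, against 2.18% of AF, 14.0% of NF, 0.549% of AF0 and 11.9% of NF0. The chips share 269 well barcodes, which are positions on a chip.

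The translocase Slc25a4 set the cardiomyocyte-labelled wells apart from the fibroblast-labelled wells. It was at 2299 CPM in AFNCM, 3134 CPM in NFNCM and 3545 CPM in NCM0, and between 540 and 961 CPM in the 4 Types of the fibroblasts chip. Slc25a4 alone made up 49.8% of all member UMIs in AFNCM, 54.4% in NFNCM and 54.4% in NCM0, and from 26.0% to 37.8% in the fibroblast Types. Slc25a4, Slc25a5 and Slc25a3 together held 84.7% to 87.9% of the member UMIs in the cardiomyocyte Types. Summed over the family, the level was 4613 CPM in AFNCM, 5757 CPM in NFNCM and 6521 CPM in NCM0, and between 2077 and 2544 CPM in the fibroblast Types. These values compare different chips, so chip and cell fraction cannot be told apart.

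Of 38 members with at least 20 UMIs over all Types, 12 were higher in all 3 cardiomyocyte Types than in any fibroblast Type (31.6%, beside 11.4% of all genes). Among them were Slc25a3, Slc25a4, Slc25a5, Slc25a11, Slc25a12, Slc25a13, Slc25a14, Slc25a20, Slc25a23, Slc25a26 and Slc25a27. In at least 2 of them the chips were within counting error at their nearest Types, as Slc25a14 was at 4.97 CPM in both AFNCM (66 UMIs) and AF (51 UMIs), and Slc25a26 at 1.89 CPM in NCM0 (10 UMIs) and 1.76 CPM in NF0 (25 UMIs). The calcium-regulated ATP-Mg/phosphate carrier Slc25a23 was at 14.7 to 40.1 CPM in these Types against 1.56 to 7.60 CPM, and Slc25a13 at 28.0 to 36.2 CPM against 2.63 to 13.8 CPM. A further 8 members were higher in all 4 fibroblast Types (21.1%, beside 18.1% of all genes), namely Slc25a1, Slc25a17, Slc25a22, Slc25a24, Slc25a32, Slc25a35, Slc25a38 and Slc25a51. Slc25a24, the relative of Slc25a23, was at 42.4 to 89.8 CPM in them against 13.6 to 24.7 CPM, and the NAD carrier Slc25a51 at 63.1 to 130 CPM against 45.2 to 49.0 CPM. Among these 8, Slc25a17, Slc25a22, Slc25a32, Slc25a35 and Slc25a38 were within counting error of the other chip at their nearest Types. Slc25a38 was at 17.2 CPM in NCM0 (interval 13.9 to 21.1) and 21.9 CPM in AF (interval 19.2 to 25.0). Slc25a22 was at 1.73 CPM in AFNCM (23 UMIs) and 2.14 CPM in AF (22 UMIs). Slc25a32 was at 3.84 CPM in AFNCM (51 UMIs) and 4.05 CPM in AF0 (41 UMIs). The remaining 18 members overlapped between chips.

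Set beside bulk, 11 of the 12 members that were higher on the cardiomyocytes chip had a bulk log2 fold change above 0, beside 27 of 39 in the whole family and 7035 of 14041 tested genes. Of the 12, 3 passed the adjusted p, all higher in imCM-AF, beside 10 of 39 in the family and 12.5% of tested genes. Of the 8 that were higher on the fibroblasts chip, 4 were above 0 and 4 below, with 1 past the adjusted p higher (Slc25a22) and 2 lower (Slc25a1 and Slc25a24). In single cells Slc25a22 was within counting error between the chips at its nearest Types. The bulk fibroblast markers were lower in imCM-AF, and their part in these bulk changes was not tested.

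**Figure D3:**
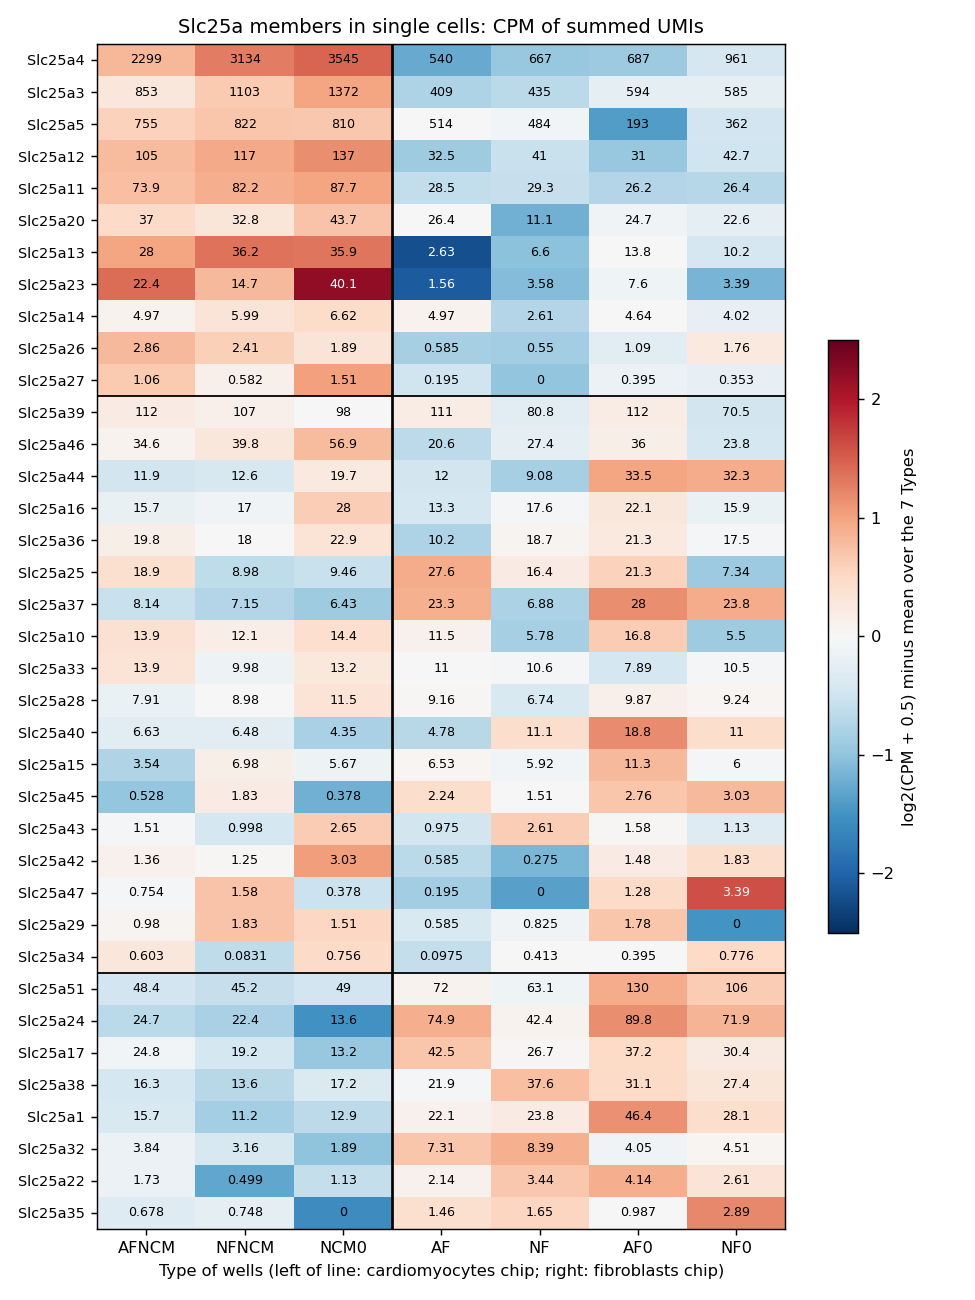
CPM of summed UMIs (printed in each cell) of 37 of these 38 members in the 7 Types; colour gives log2(CPM + 0.5) minus its mean over the Types, and horizontal lines separate 11 of the members higher on the cardiomyocytes chip, the 18 that overlap and the 8 higher on the fibroblasts chip. Slc25a4 falls from 3545 CPM in NCM0 to 540 CPM in AF.

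Between AFNCM and NFNCM wells, 9 of 36 members with at least 20 UMIs in the 2 Types were past a log2 ratio of 0.58 in either direction (25.0%, beside 35.1% of all genes), 5 higher and 4 lower in AFNCM. These shares of 13.9% and 11.1% stand beside 25.4% and 9.72% of all genes, whose median log2 ratio was 0.17 against 0.08 for the members. Of the 9, 5 had a counting interval that excludes 0 and 2 had numbered sources that did not overlap. Those 2 were Slc25a25, an ATP-Mg/phosphate carrier, with 251 against 108 UMIs (log2 ratio 1.08, interval 0.74 to 1.41), and the ornithine carrier Slc25a15 with 47 against 84 UMIs (-0.98, interval -1.53 to -0.45). The sources of Slc25a25 were at 10.6, 24.3 and 18.6 CPM in AFNCM and at 6.44, 10.3 and 9.96 CPM in NFNCM, so the nearest of them lay close together. Those of Slc25a15 were at 2.89, 4.71 and 2.77 CPM against 8.05, 5.79 and 7.34 CPM. Slc25a22 (1.80), Slc25a27 (0.86), Slc25a23 (0.61) and Slc25a43 (0.60) were the others on the higher side. Counts were low for Slc25a22 (23 against 6 UMIs), Slc25a27 (14 against 7) and Slc25a43 (20 against 12). Slc25a45 (-1.79), Slc25a47 (-1.07) and Slc25a29 (-0.90) were the others on the lower side, on 29 to 35 UMIs each. The direction of 3 of these turned under an alternative: Slc25a27 to -0.48 without the limit on a well's UMI total, and Slc25a45 to 0.70 and Slc25a47 to 0.80 with wells weighted equally. Fibroblast markers summed to 3076 CPM in AFNCM and 1418 CPM in NFNCM, the reverse of their order in bulk, and cardiomyocyte markers to 26295 and 32111 CPM.

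The 4 members called in bulk were not past the fold here where at least 20 UMIs allowed a ratio. Slc25a34 had fewer, with 8 UMIs in AFNCM (0.603 CPM, interval 0.26 to 1.19) and 1 UMI in NFNCM (0.0831 CPM, interval 0.0021 to 0.463). It was higher in AFNCM, the direction seen in bulk, but the 2 counting intervals overlap and no ratio was read from so few UMIs. Of the 8 UMIs in AFNCM, 6 came from source 1, and sources 2 and 3 held 1 each. Slc25a42 had 18 against 15 UMIs (log2 ratio 0.12, interval -0.95 to 1.21). Slc25a20 was at 37.0 and 32.8 CPM (0.18, interval -0.02 to 0.37), with sources at 35.9 to 39.5 CPM against 30.1 to 35.4 CPM. Slc25a13 went the other way, at 28.0 CPM in AFNCM and 36.2 CPM in NFNCM (-0.37, interval -0.57 to -0.17), though its sources overlapped. Slc25a4 was lower in AFNCM by a log2 ratio of -0.45 (interval -0.47 to -0.42), with sources at 2255 to 2348 CPM against 2883 to 3404 CPM.

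Over the 36 members, 17 had the same sign in bulk and in these wells (47.2%), beside 44.3% of 11772 genes in both. Of the 12 members past the adjusted p in bulk, 6 had the same sign.

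**Figure D4:**
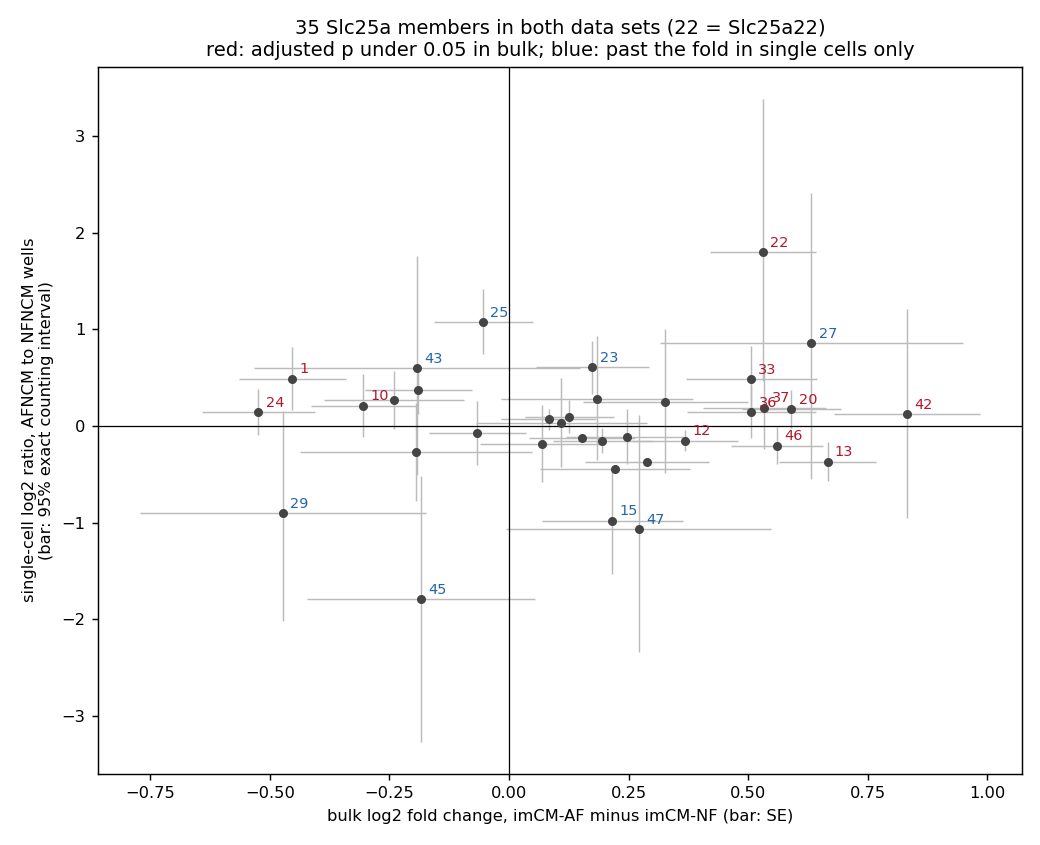
Bulk log2 fold change (x axis, bar is the SE) against the single-cell log2 ratio of AFNCM to NFNCM wells (y axis, bar is the 95% counting interval) for 35 of the 36 members, where those past the adjusted p in bulk or past the fold in single cells are labelled by the number after Slc25a. Slc25a13 lies at 0.67 in bulk and at -0.37 in single cells, and Slc25a34 is not plotted because it had under 20 UMIs.

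Between AF and NF wells of the fibroblasts chip, 15 of 32 members were past the fold (46.9%, beside 45.7% of all genes), 7 higher and 8 lower in AF (21.9% and 25.0%, beside 30.3% and 15.4%). Median depth was 30469 UMIs a well in AF and 17323 in NF. Mitoferrin-1, Slc25a37, was at 23.3 CPM in AF and 6.88 CPM in NF (log2 ratio 1.76, interval 1.31 to 2.23), with sources at 16.9 and 29.9 CPM against 2.85 and 11.5 CPM. Slc25a20 was at 26.4 and 11.1 CPM (1.24, interval 0.88 to 1.62), with sources at 25.1 and 27.7 CPM against 8.02 and 14.7 CPM. Slc25a24 was at 74.9 and 42.4 CPM (0.82, interval 0.63 to 1.02), with sources at 62.1 and 88.2 CPM against 35.2 and 50.5 CPM. In these 3 genes both AF sources lay above both NF sources. In AF0 and NF0 the levels were closer, with Slc25a37 at 28.0 and 23.8 CPM and Slc25a20 at 24.7 and 22.6 CPM. Slc25a24 was there at 89.8 and 71.9 CPM. Slc25a10 (0.99), Slc25a14 (0.93), Slc25a25 (0.75) and Slc25a17 (0.67) were also higher in AF than in NF. On the lower side stood, among others, Slc25a43 (-1.42), Slc25a13 (-1.33), Slc25a40 (-1.22), Slc25a23 (-1.20), Slc25a36 (-0.87), Slc25a38 (-0.78) and Slc25a22 (-0.68). The direction of 3 of these members turned under an alternative: Slc25a14 to -0.38 and Slc25a36 to 0.47 without the limit on a well's UMI total, and Slc25a40 to 0.44 in wells matched on markers. Counts were low for Slc25a43 (10 against 19 UMIs) and Slc25a22 (22 against 25). Slc25a13 and Slc25a23 are among the members higher on the cardiomyocytes chip, and summed cardiomyocyte markers were at 436 CPM in AF and 2948 CPM in NF.

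Slc25a25 was the only member past the fold and higher in both AFNCM and AF, at 18.9 against 8.98 CPM and at 27.6 against 16.4 CPM. Its bulk log2 fold change was -0.05 ± 0.10 (adjusted p = 0.736).

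The wells named NCM0, AF0 and NF0 gave further levels. In NCM0, 20 of 38 members were higher than in both AFNCM and NFNCM (52.6%, beside 34.9% of all genes), with Slc25a23 at 40.1 CPM, Slc25a46, the outer membrane protein, at 56.9 CPM and Slc25a12 at 137 CPM. Slc25a24 was lower in NCM0, at 13.6 CPM against 22.4 CPM in NFNCM and 24.7 CPM in AFNCM. Its NCM0 sources, at 20.1 and 8.84 CPM, overlapped those of NFNCM (19.8 to 25.0 CPM) and AFNCM (17.0 to 28.1 CPM). The sources of Slc25a46 overlapped as well, at 36.7 and 71.7 CPM in NCM0 and up to 51.6 CPM in NFNCM. Those of Slc25a23 and Slc25a12 in NCM0 lay above the sources of AFNCM and NFNCM. Between AFNCM and NCM0, 17 of 34 members were past the fold (beside 44.0% of all genes), 7 higher and 10 lower in AFNCM (beside 26.8% and 17.2%). Between NFNCM and NCM0, 9 of 34 were (26.5%, beside 36.3%), 4 higher and 5 lower in NFNCM (beside 15.6% and 20.7%). Numbered sources did not overlap for 5 of these 17 and 4 of these 9, and counting intervals excluded 0 for 11 and 8. On the fibroblasts chip 16 of 34 members were past the fold between AF and AF0 (47.1%, beside 56.4% of all genes), 2 higher and 14 lower in AF (beside 27.1% and 29.3%). Between NF and NF0, 16 of 35 were (45.7%, beside 42.0%), 4 higher and 12 lower in NF (beside 14.6% and 27.4%). Numbered sources did not overlap for 10 of 16 members in AF against AF0 and also in NF against NF0. Counting intervals excluded 0 for 14 in each. Slc25a44, a carrier of branched-chain amino acids, was at 33.5 CPM in AF0 and 32.3 CPM in NF0 and at 12.0 CPM in AF and 9.08 CPM in NF. Its sources were at 14.5 and 43.3 CPM in AF0 against 11.1 and 12.9 CPM in AF, so the nearest lay close together. In NF0 its sources were at 19.8 and 38.9 CPM, against 5.43 and 13.2 CPM in NF. Slc25a5 went the other way, from 193 CPM in AF0 to 514 CPM in AF (log2 ratio 1.41, interval 1.34 to 1.49).

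Close relatives were compared by the share of the first gene in the reads or UMIs of the pair. In bulk, Slc25a4 took 82.8% and 82.1% of the Slc25a4 and Slc25a5 reads in imCM-NF and 82.8% and 83.4% in imCM-AF. Slc25a12 took 81.7% and 79.7% of the reads of the aspartate/glutamate carriers in imCM-NF and 77.3% and 77.5% in imCM-AF, a difference of -3.29 percentage points. Slc25a37 took 56.8% and 56.4% of the mitoferrin reads in imCM-NF and 61.2% and 66.8% in imCM-AF, a difference of 7.41 points. Slc25a33 took 50.4% and 47.2% of the reads with Slc25a36 in imCM-NF and 51.6% and 46.4% in imCM-AF, where the groups overlapped. In the first 3 pairs the groups did not overlap, and the exact permutation test gave p = 0.333, the smallest that 2 against 2 libraries allow (two-sided, 0.444 after adjustment over the 4 pairs). The mitoferrin shift came with a rise of Slc25a37 while Slc25a28 had a log2 fold change of 0.07 ± 0.13.

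In single cells the Slc25a4 share was 75.3% in AFNCM, 79.2% in NFNCM and 81.4% in NCM0, and on the fibroblasts chip 51.2% in AF, 57.98% in NF, 78.1% in AF0 and 72.6% in NF0. The lowest shares were thus those of AF and NF, where Slc25a5 reached 514 and 484 CPM. Slc25a37 held 71.8% of mitoferrin UMIs in AF, 74.0% in AF0 and 72.1% in NF0, against 50.5% in NF (interval 40.3% to 60.7%) and 35.8% to 50.7% in the cardiomyocyte Types. The Slc25a12 share was 78.9% in AFNCM (interval 76.9% to 80.8%) and 76.3% in NFNCM (interval 74.3% to 78.2%), the reverse of its order in bulk, and it ran from 69.2% in AF0 to 92.5% in AF. The Slc25a33 share was 41.3% in AFNCM, 35.7% in NFNCM and 51.8% in AF, and 27.0% in AF0.

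**Figure D5:**
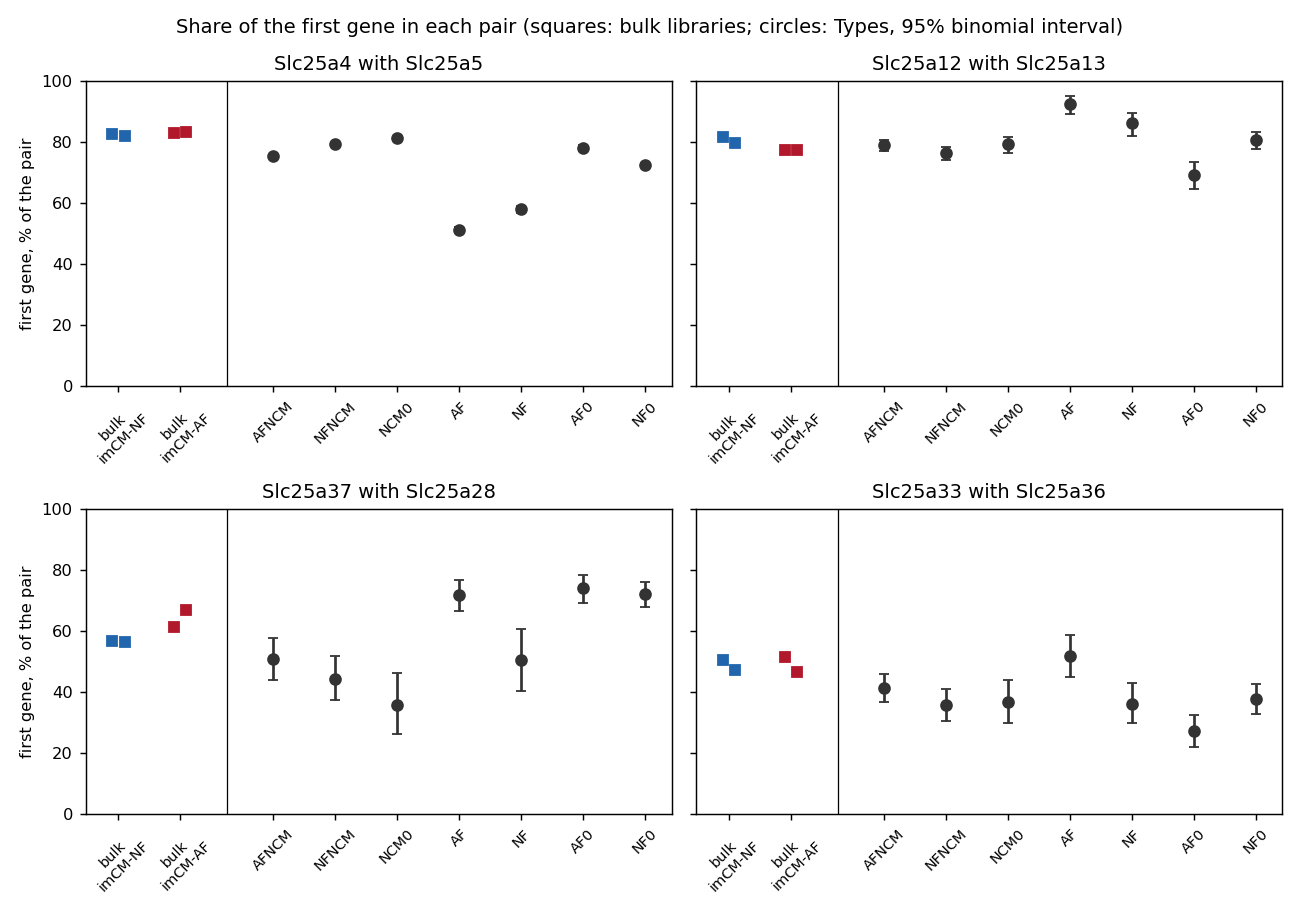
Share of the first gene in each of 4 pairs (y axis, percent), as squares for each bulk library and as circles with 95% binomial intervals for each Type. Slc25a4 holds over 82% of its pair in every bulk library and 51.2% in AF wells.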

How the data were processed

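Bulk RNA-Seq of co-cultured imCMs (2 libraries a group) and 2 single-cell libraries were used. For bulk, the authors deposited raw counts per gene, made per the study's methods with Subread (its R package) on mm10, unique reads only, and featureCounts on the RefSeq genes built into it. Strand use is not given in the sources used here, so genes that overlap a gene on the other strand and close paralogs are uncertain. The chip files hold UMI counts for each gene in each well, which the authors made with STAR 2.5.2b on mm10 and featureCounts (Subread 1.4.6-p1), with the read pairs screened and aligned per well. Deposited columns of the authors' own comparisons were not used. Members and gene lists were chosen with earlier results of these data known.

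Symbols and coordinates came from RefSeq (GRCm38.p6, the assembly of mm10) by Entrez identifier. Of 27179 identifiers, 1904 had no symbol and held 3.52% of counts. Exon lengths came from GENCODE by symbol. Genes with CPM over 1 in at least 2 libraries were tested with edgeR 4.0.16 (TMM scaling, quasi-likelihood test, R 4.3.3), and p-values were adjusted by Benjamini-Hochberg over all tested genes. A call needed a log2 fold change beyond 0.58 either way with an adjusted p below 0.05, as in the study's own limma test. DESeq2 1.42.0 and limma-voom (limma 3.58.1) were alternatives, and the procedure was tested on simulated data. Libraries of a group differed by more than counting noise (chi-square per degree of freedom 9.12 in imCM-NF and 8.94 in imCM-AF).

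Wells were kept with at least 500 non-mitochondrial genes, more than 50% of reads aligned, and a total no further than 2 SD from the mean of its chip. Spike-ins and mitochondrial genes were left out of totals. No doublet caller was run. UMIs were summed per Type, with exact Poisson intervals for CPM and exact binomial intervals for shares and ratios (95%), and a log2 ratio was read only with at least 20 UMIs in both Types together. Every member may be named, with values in each library for called members, the 5 most abundant per kilobase and the 4 pairs, and list genes when called. List genes that were not called are named after their values were seen. Protein sequences were not used here. Values of 1 member and of 1 list gene are not reported here, while counts over the family and lists include them.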

Additional observations from a re-analysis of the deposited data

Results flagged for a closer look

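Slc25a22, Slc25a23 and Slc25a43 stand out because they were past the fold in opposite directions on the 2 chips. The log2 ratio of AFNCM to NFNCM wells was 1.80 for Slc25a22, 0.61 for Slc25a23 and 0.60 for Slc25a43. The log2 ratio of AF to NF wells was -0.68, -1.20 and -1.42 for the same genes in that order. Counts were low for Slc25a22, with 23 against 6 UMIs in AFNCM and NFNCM and 22 against 25 in AF and NF. They were also low for Slc25a43, with 20 against 12 UMIs in AFNCM and NFNCM and 10 against 19 in AF and NF. Each chip is 1 sample, so the difference between chips was not tested. For Slc25a23 both counting intervals exclude 0 (0.33 to 0.88 and -2.19 to -0.24), while for Slc25a22 the AF interval and for Slc25a43 the AFNCM interval include 0. The sources of Slc25a23 overlapped, at 14.8, 14.9 and 34.6 CPM in AFNCM and 9.13, 20.7 and 13.1 CPM in NFNCM. Those of Slc25a22 overlapped as well, at 0.962, 0.981 and 2.97 CPM in AFNCM and 1.07, 0 and 0.524 CPM in NFNCM.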

How the results depend on the processing

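In bulk, the count of members called was 3 to 5 under other scalings, filters and tests. With the adjusted p alone it was 13 (10 higher, 3 lower), and with a log2 threshold of 1 it was 1 (1 higher, 0 lower). Leaving out 1 library gave 3 to 7 (higher 3 to 7, lower 0 to 1). Of the list genes 8 were called (7 higher, 1 lower), with Ucp3, which passed the filter through imCM-AF only, among the higher. With the adjusted p alone 17 were called (9 higher, 8 lower). A log2 threshold of 1 left 2 (2 higher, 0 lower), while without an expression filter 2 were lower. Leaving out 1 library gave 5 to 13 list genes (higher 5 to 9, lower 0 to 5), with 13 without imCM-NF replicate 1 and 5 without imCM-NF replicate 2. A left-out library leaves 1 sample in its group, which is assumed to vary like the other group. The cause of these shifts was not tested beyond the thresholds' own construction. The replicate numbers do not pair the libraries (correlation of deviations -0.13), and with the replicate block 4 members and 8 list genes were called. The crossed pairing, chosen after seeing the data, gave 4 and 8, with 1668 of all genes against 1564. Over all genes, DESeq2 called 1078, a log2 threshold of 1 left 565, the adjusted p alone gave 3789, and leaving out 1 library gave 879 to 1929. The share of Slc25a33 moved by 0.16 points between groups, and by -2.41 to 2.73 points with 1 library left out.

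Without a limit on the UMI total of a well, the Slc25a4 share was 80.7% in NCM0 and 71.2% in NF0, the Slc25a12 share 76.2% in AFNCM, the Slc25a37 share 64.6% in AFNCM, 48.0% in NCM0, 64.0% in AF and 64.7% in AF0, and the Slc25a33 share 35.6% in AFNCM and 28.7% in AF. Between AFNCM and NFNCM, 9 members were higher with wells weighted equally (beside 4144 of 15025 genes) and 3 in marker-matched wells (beside 3563 of 14213). Without the UMI limit Slc25a27 turned to -0.48 there, and in AF against NF Slc25a14 turned to -0.38 and Slc25a36 to 0.47. With wells weighted equally Slc25a45 turned to 0.70 and Slc25a47 to 0.80, and in marker-matched wells Slc25a40 turned to 0.44 in AF against NF. The cause was not tested. Members under 20 UMIs, Slc25a34 among them, were too few in UMIs for a ratio.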
